A study of Drosophila melanogaster with 6 samples.

Results

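The SmydA genes of Drosophila melanogaster are 9 genes, SmydA-1 to SmydA-9, measured here by 11 of 18769 probe sets on an Affymetrix expression array. The members were all probe sets whose single gene symbol in the platform annotation begins with SmydA. SmydA-3 and SmydA-8 had 2 probe sets each and the other genes 1 each. The family was picked with the genotype differences of these arrays already known, so its values are given as a description, without p-values. The measurement asks how the transcripts of the family stood in embryos without CrebA, a bZIP transcription factor of the fly that the series title links to secretory pathway genes.

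RNA came from 3 samples of CrebA null mutant embryos and from 3 samples of wild-type embryos. Mutant embryos were picked on a COPAS biosorter, which sorts intact embryos by size and fluorescence, for lack of GFP from the balancer chromosome, and wild-type embryos passed through the same instrument. Eggs of both genotypes were collected over 8 h and aged for 11 h more, and their stages begin at 11 and end at 15 by the source name or at 17 by the description. The sources used here give neither the null allele nor the wild-type strain. No label says that the replicates were separate collections, so the spread between arrays may be technical. Each array holds RNA of whole embryos over a wide range of stages, in which fewer cells of a type and less RNA per cell cannot be told apart.

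SMYD proteins carry a SET domain, the fold with which most lysine methyltransferases move a methyl group from S-adenosylmethionine to a lysine, and a MYND zinc finger set into it, which binds other proteins. Well-studied members of the family include vertebrate Smyd1, which is needed in heart and skeletal muscle and works with the chaperone Hsp90. Flies have Smyd3, Smyd4 and Smyd5 genes besides the SmydA genes, which form a group expanded in arthropods. The substrates of most SmydA proteins are not established, and no role of a single SmydA gene is given here for that reason. In the RefSeq gene table of Release 6, SmydA-8 also carries the name msta, and SmydA-3 (CG43129) replaced the 2 older gene models CG17085 and CG17086.

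Expression is given as the deposited RMA values (log2). Probe sets of foreign Tag sequences on the array, 17 in number, gave a level for signal without a fly transcript. The highest of them lay between 4.71 and 4.93 on the mutant arrays and between 4.81 and 5.28 on the wild-type arrays. Of the 11 SmydA probe sets, 7 lay above the highest Tag control of the same array on all 6 arrays, as did 52.4% of all probe sets. A probe set's level depends on its own probes, so levels were compared between genotypes and not between genes. In both genotypes replicate 2 was set off from the remaining arrays on the first principal component (20.1 for mutant 2, 53.5 for wild type 2, and -36.8 to -3.2 for the others). The annotation names no probe set CrebA, so CrebA itself was not analysed here and the genotypes had no check of their own. Of 28 measured markers of 10 tissues and stages, 24 lay above the Tag controls on all 6 arrays. The other 4 were the larval glue gene Sgs3, the haemocyte gene Hml, the oocyte gene osk and the early segmentation gene ftz. Between the genotypes 4 of the 28 passed the limma test described below. Of all genes, 1.90% passed it as higher and 1.02% as lower.

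Of the 9 genes, 6 had at least 1 probe set with every mutant array above every wild-type array, and none had the opposite order. The 6 were SmydA-2, SmydA-3, SmydA-4, SmydA-5, SmydA-7 and SmydA-8. By probe set these were 7 of 11, where 8.71% of all probe sets on the array had the mutants wholly above the wild type. Without SmydA-5, whose wild-type values were all below the control level, they were 6 probe sets of 5 genes. The median log2 difference, mutant minus wild type, was 0.64 over the 11 SmydA probe sets and -0.03 over all probe sets, and with SmydA-5 held at the control level in wild type the SmydA median was 0.50. SmydA-1 and one of the SmydA-3 probe sets had overlapping genotypes, as did SmydA-6 and SmydA-9, which were near or below the Tag controls.

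**Figure D1:**
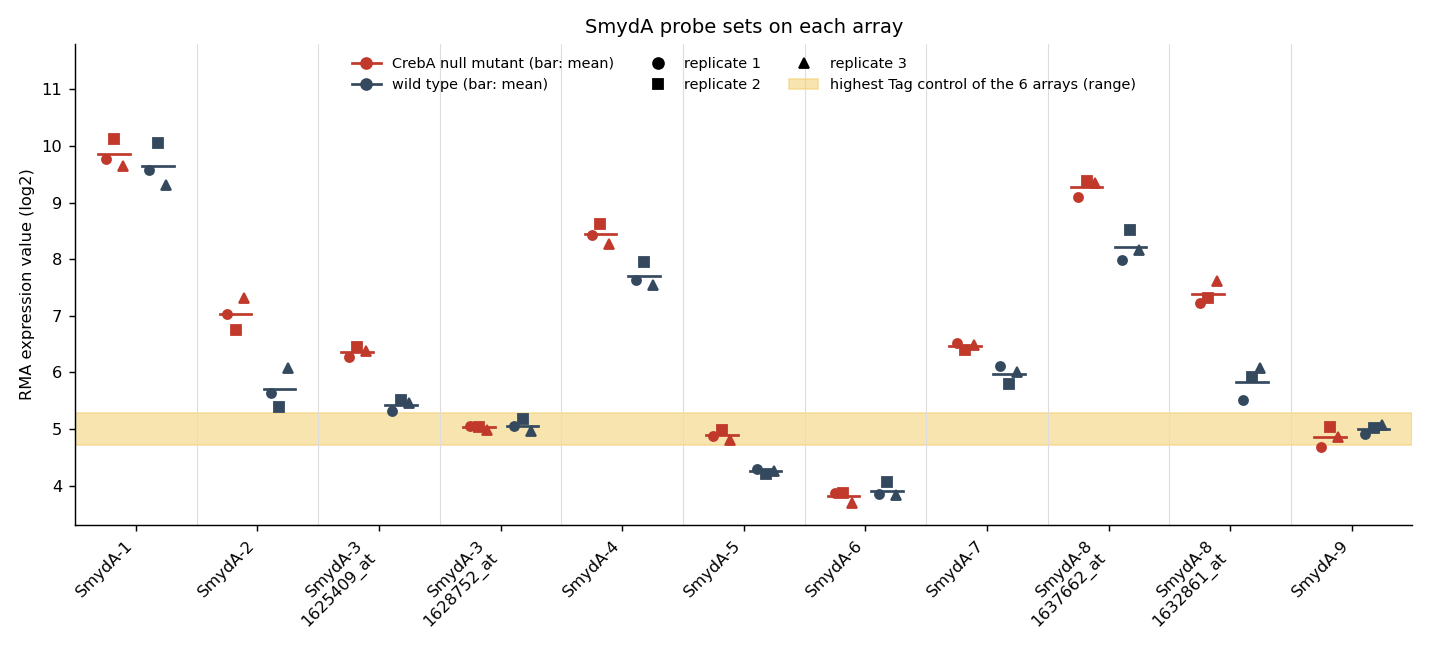
RMA expression values (log2, vertical axis) of the 11 SmydA probe sets in CrebA null mutant embryos (left of each pair) and wild-type embryos (right). Symbols are the replicates, bars the means of 3 arrays, and the shaded band spans the highest Tag control of each of the 6 arrays (4.71 to 5.28). The genotypes are apart for SmydA-2, 1 probe set of SmydA-3, SmydA-4, SmydA-5, SmydA-7 and both of SmydA-8.

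SmydA-8 (CG33548) had the largest difference of the family, in the same direction in both of its probe sets. Probe set 1632861_at gave 7.23, 7.31 and 7.62 on mutant arrays 1, 2 and 3, against 5.51, 5.91 and 6.07 on wild-type arrays 1, 2 and 3. Its lowest mutant array lay 1.17 above its highest wild-type array. On wild-type arrays 1 and 2 the values were not far above the highest Tag controls (4.99 and 5.28). The mean was 7.39 ± 0.21 in mutants and 5.83 ± 0.29 in wild type (SD, n = 3 each), a 2.94-fold higher level in mutants (log2 difference 1.56, SE 0.18).

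The second SmydA-8 probe set, 1637662_at, gave 9.10, 9.38 and 9.34 on mutant arrays 1, 2 and 3, against 7.99, 8.51 and 8.17 on wild-type arrays 1, 2 and 3. All mutant arrays were again above all wild-type arrays, by at least 0.59. The mutant level was 2.07 times the wild-type level (log2 difference 1.05, SE 0.16). The size of the difference was thus not the same for both probe sets of the gene, 1.56 and 1.05, and which transcripts of SmydA-8 each one reads is not given in the files used here.

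SmydA-2 (CG18136) gave 7.03, 6.75 and 7.32 on mutant arrays 1, 2 and 3, against 5.63, 5.38 and 6.07 on wild-type arrays 1, 2 and 3. The genotypes were apart by 0.68, and within each genotype replicate 2 was lowest and replicate 3 highest. On wild-type array 2 the value was close to the highest Tag control of that array (5.28). The mean was 7.03 ± 0.28 in mutants and 5.70 ± 0.35 in wild type (SD, n = 3 each), a log2 difference of 1.34 (SE 0.22), or 2.53-fold.

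The probe sets of SmydA-3 differed from each other. Probe set 1625409_at read 6.27, 6.45 and 6.37 on mutant arrays 1, 2 and 3, against 5.32, 5.52 and 5.46 on wild-type arrays 1, 2 and 3. It had the least spread within a genotype of the probe sets that differed by over 0.9, with ranges of 0.18 in mutants and 0.20 in wild type, and a log2 difference of 0.93 (SE 0.09), or 1.91-fold. Its wild-type values were not far above the Tag controls of the same arrays (4.99, 5.28 and 4.81).

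Probe set 1628752_at of SmydA-3 read 5.06, 5.04 and 4.99 on mutant arrays 1, 2 and 3, against 5.05, 5.17 and 4.97 on wild-type arrays 1, 2 and 3. These values overlap, with a log2 difference of -0.03 (SE 0.08). They sit within the range of the highest Tag controls over the 6 arrays (4.71 to 5.28). Against the highest Tag control of the same array, they were above it on 3 mutant arrays and 2 wild-type arrays. This probe set and 1625409_at share a gene name whose 2 older gene models were merged. Which of the older models each probe set was designed on is not given in the files used here, so what sets them apart was not tested.

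SmydA-4 (CG11160) gave 8.42, 8.62 and 8.27 on mutant arrays 1, 2 and 3, against 7.64, 7.95 and 7.55 on wild-type arrays 1, 2 and 3. The genotypes were apart by 0.33, and in both of them replicate 2 was highest and replicate 3 lowest. The mean was 8.44 ± 0.17 in mutants and 7.71 ± 0.21 in wild type (SD, n = 3 each), a log2 difference of 0.72 (SE 0.14).

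SmydA-7 (CG9640) and SmydA-6 (CG9642) are next to each other in the RefSeq gene table, with no other protein-coding gene between their starts. SmydA-7 gave 6.52, 6.39 and 6.48 on mutant arrays 1, 2 and 3, against 6.11, 5.80 and 6.0 on wild-type arrays 1, 2 and 3, a log2 difference of 0.50 (SE 0.11) with the genotypes apart by 0.28. SmydA-6 gave 3.87, 3.87 and 3.70 on mutant arrays 1, 2 and 3, against 3.86, 4.06 and 3.83 on wild-type arrays 1, 2 and 3. SmydA-6 lay below the highest Tag control on every array, so no change of this neighbour could be read at its level.

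SmydA-5 (CG14590) gave 4.87, 4.98 and 4.81 on mutant arrays 1, 2 and 3, against 4.30, 4.20 and 4.26 on wild-type arrays 1, 2 and 3. The mutant values lay just above the highest Tag control of their arrays (4.81, 4.93 and 4.71) and the wild-type values were below theirs on all 3 arrays. The measured means were 4.89 in mutants and 4.25 in wild type. The groups did not overlap, but the wild-type level is only a bound. No fold is given, since one taken against the wild-type Tag controls came out below 1.

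SmydA-9 (CG12119) gave 4.69, 5.04 and 4.86 on mutant arrays 1, 2 and 3, against 4.91, 5.01 and 5.07 on wild-type arrays 1, 2 and 3. It exceeded the Tag controls on 2 mutant arrays and 1 wild-type array, and its genotypes overlapped (log2 difference -0.14, SE 0.11). SmydA-1 (CG8503), by contrast, was far above the controls, with 9.77, 10.13 and 9.65 on mutant arrays 1, 2 and 3, against 9.58, 10.05 and 9.31 on wild-type arrays 1, 2 and 3. The genotypes of SmydA-1 overlapped, replicate 2 was its highest array in both, and the log2 difference was 0.20 (SE 0.22).

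In a limma fit of all 18769 probe sets, with Benjamini-Hochberg adjustment over all of them and a threshold of 0.05, 5 SmydA probe sets of 4 genes were past the threshold as higher in mutants and 0 as lower. They were those of SmydA-2, SmydA-5 and SmydA-8 and probe set 1625409_at of SmydA-3. Over the whole array 1.42% of probe sets passed as higher and 0.911% as lower. The family was picked on this same contrast, so nothing is read from its share. SmydA-4 and SmydA-7 did not pass, although their genotypes did not overlap. By size, 0.33% of all probe sets had a larger difference than SmydA-8 (1632861_at), 0.591% a larger one than SmydA-2 and 6.58% a larger one than SmydA-7.

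**Figure D2:**
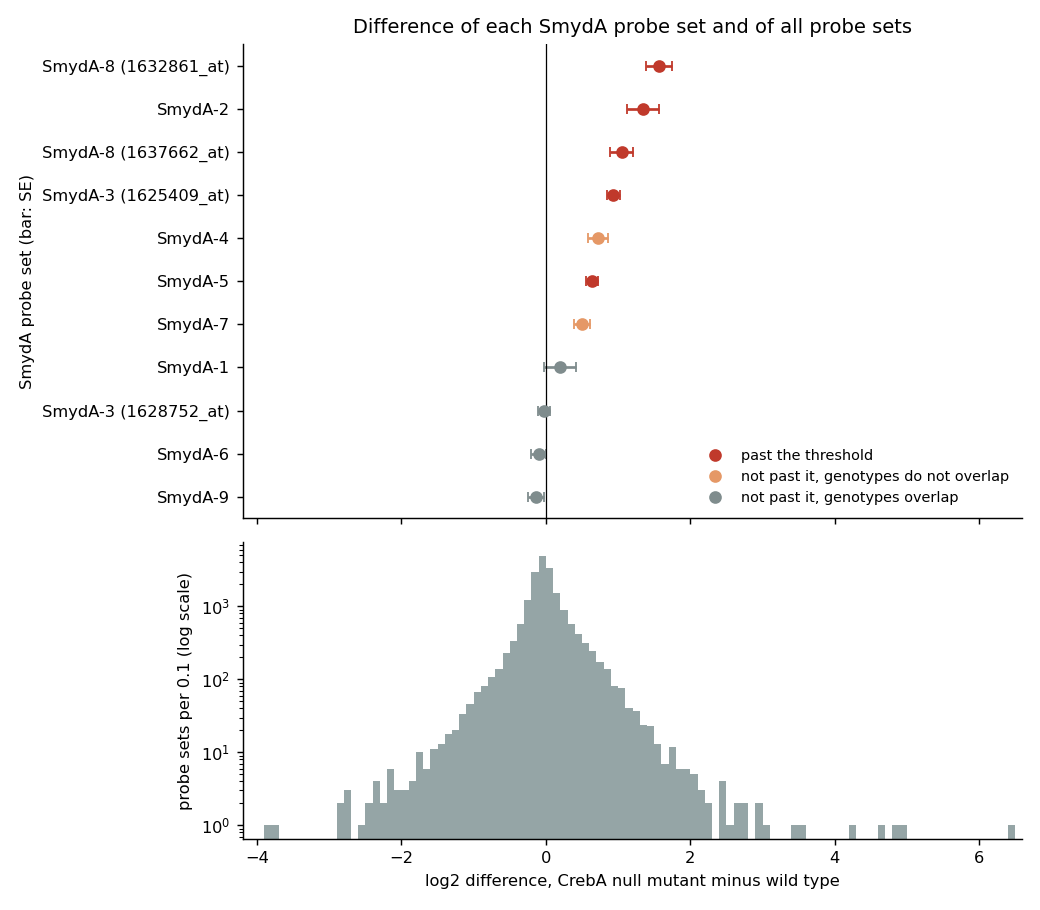
Log2 difference, CrebA null mutant minus wild type, of the 11 SmydA probe sets (upper panel, points with SE bars, coloured by the limma threshold and by overlap of the genotypes) and the number of all 18769 probe sets at each difference (lower panel, log axis). SmydA differences run from -0.14 to 1.56, and 8 of 11 are positive.

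The genotypes share replicate numbers, and arrays of the same number deviated together from their genotype means, most of all in replicate 2 (r 0.852). Deviations from a mean of 3 arrays cancel out. With replicate 2 set off in both genotypes, arrays 1 and 3 therefore tend to correlate, matched or crossed. Mutant 3 deviated as much with wild type 1 (r 0.566) as with wild type 3 (r 0.563). The numbers are thus not shown to mark pairs. The SD of the 3 differences between same-numbered arrays ran from 0.03 to 0.16 over the SmydA probe sets. For probe set 1625409_at of SmydA-3 they were 0.96, 0.94 and 0.91 in replicates 1, 2 and 3, with an SD of 0.03. For SmydA-4 they were 0.78, 0.67 and 0.72, with an SD of 0.05, although SmydA-4 itself spanned 0.35 over the mutant arrays and 0.40 over the wild-type arrays.

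SmydA-2 had same-number differences of 1.40, 1.37 and 1.25 in replicates 1, 2 and 3, and SmydA-7 of 0.42, 0.59 and 0.48. SmydA-2 itself spanned 0.57 over the mutant arrays and 0.69 over the wild-type arrays. The SmydA-8 differences were smaller in replicate 2 than in the others in both probe sets, with 1.72, 1.40 and 1.56 for 1632861_at and 1.11, 0.87 and 1.17 for 1637662_at, each with an SD of 0.16. SmydA-5 had 0.57, 0.79 and 0.56 in replicates 1, 2 and 3, an SD of 0.13 that exceeds its SD within mutants (0.0859) and within wild type (0.0546).

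**Figure D3:**
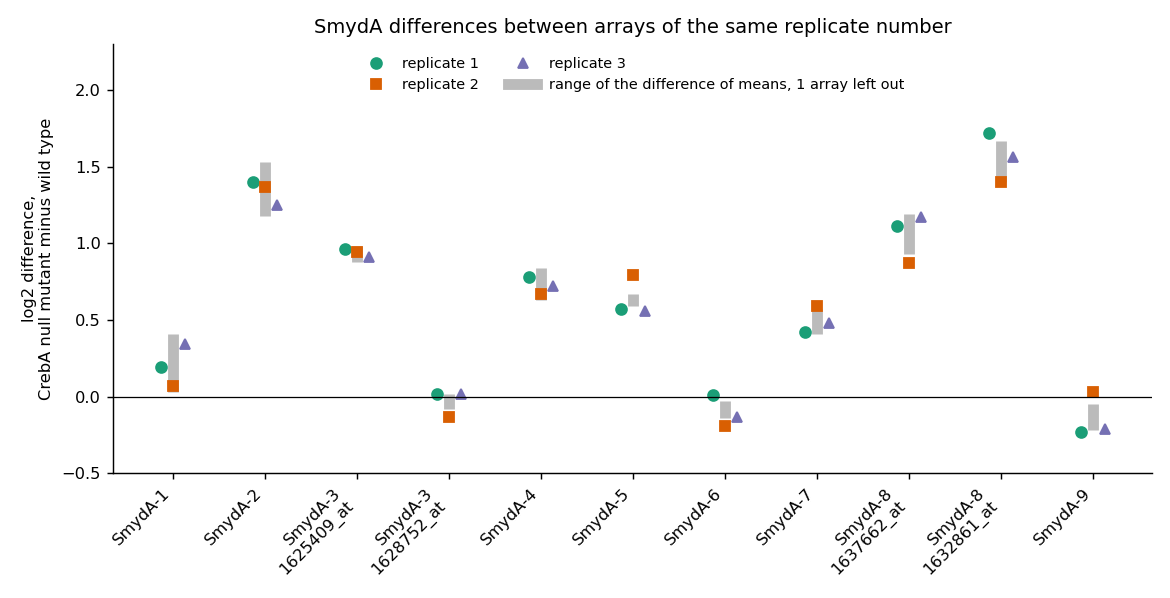
Log2 difference between mutant and wild-type arrays of the same replicate number (symbols, vertical axis) for the 11 SmydA probe sets, with grey bars for the range of the difference of means when 1 array is left out. All 3 differences lie between 0.42 and 1.72 for the 7 probe sets whose genotypes do not overlap, and around 0 for the second SmydA-3 probe set, SmydA-6 and SmydA-9.

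With the replicate number as a block in the limma fit, 7 SmydA probe sets passed as higher and 0 as lower, SmydA-4 and SmydA-7 being added. On the whole array the block gave 9.53% of probe sets as higher. Without both replicate 2 arrays, 6 SmydA probe sets passed as higher (3.10% of all probe sets), with SmydA-4 added, and the differences of the 7 probe sets with separate genotypes lay between 0.45 for SmydA-7 and 1.64 for SmydA-8. Calls depended on single arrays: with 1 array left out, 0 SmydA probe sets passed without mutant 1, mutant 3 or wild type 1, 1 without wild type 3, 2 without mutant 2 and 3 without wild type 2. Calls fell over the whole array too, to between 23 and 159 probe sets higher in the same fits, against 267 with all 6 arrays. Over these 6 fits the differences ran from 1.40 to 1.67 for SmydA-8 (1632861_at), from 1.18 to 1.53 for SmydA-2 and from 0.88 to 0.98 for SmydA-3 (1625409_at). Small differences moved more for their size, from 0.03 to 0.41 for SmydA-1 and from -0.22 to -0.05 for SmydA-9. That of SmydA-3 (1628752_at) ran from -0.08 to 0.02.

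The other SMYD genes of the fly did not share one direction. Of 6 measured genes, none passed the limma test in either direction (1 had an unadjusted p under 0.05), and the median log2 difference was 0.02, against -0.02 over all 11982 genes, of which 1.90% passed as higher and 1.02% as lower. Smyd4-2, known in the fly as a muscle regulator under the name dSmyd4, gave 8.09, 8.63 and 8.09 on mutant arrays 1, 2 and 3, against 7.99, 8.67 and 7.93 on wild-type arrays 1, 2 and 3. Its genotypes overlapped, with replicate 2 highest in both (log2 difference 0.07, SE 0.25, limma adjusted p 0.952).

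Smyd4-3 had a difference of 0.28 (SE 0.16, limma adjusted p 0.568). Smyd3 and Smyd4-4 did not pass without the replicate block and passed with it, when 12.6% of all genes were called higher and 9.21% lower. Smyd3 had a difference of 0.32 (limma adjusted p 0.374, and 0.0432 with the block), and Smyd4-4 one of -0.55 (limma adjusted p 0.1, and 0.00774 with the block). Smyd4-4 gave 6.54, 6.73 and 6.31 on mutant arrays 1, 2 and 3, against 7.09, 7.16 and 6.98 on wild-type arrays 1, 2 and 3, so its genotypes did not overlap and lay in the order opposite to the SmydA genes. On the array 10.2% of genes had the mutants wholly below the wild type. Both genes were singled out after their values were seen. Whether the SmydA genes differ from these genes as a group was not tested.

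Genes for other SET domain enzymes and MYND proteins had log2 differences from -0.46 to 0.08. Among all genes 1.90% passed the limma test as higher and 1.02% as lower. None of 7 measured SET domain histone methyltransferase genes passed the limma test, at an unadjusted p under 0.05 either (median log2 difference -0.12, range -0.43 to 0.08). Set2, which methylates histones over transcribed genes, and Hmt4-20, which acts on histone tails in silent chromatin, had differences of -0.12 (SE 0.36, limma adjusted p 0.949) and -0.17 (SE 0.17, limma adjusted p 0.787). None of 5 other MYND genes passed, and none had an unadjusted p under 0.05 (median -0.20). The prolyl hydroxylase gene Hph had a difference of -0.20 (SE 0.58, limma adjusted p 0.943). The ETO-family corepressor gene nvy had one of -0.46 (limma adjusted p 0.471) and passed as lower with the block (limma adjusted p 0.0195). The block called 9.21% of all genes lower.

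Genes for histone deacetylases and Hsp90 partners, with which SMYD proteins work in vertebrates, did not pass either. Of 7 measured genes 0 passed, 1 with an unadjusted p under 0.05, and the median log2 difference was 0.08. The mutants lay wholly above the wild type for HDAC4 (0.63, SE 0.20, limma adjusted p 0.224), as for 10.9% of all genes. They lay wholly below it for HDAC1, as for 10.2% of all genes. HDAC4 was singled out after its values were seen. The deacetylase gene HDAC1 and the Hsp90 co-chaperone gene Cdc37 had differences of -0.36 (SE 0.17, limma adjusted p 0.431) and 0.09 (SE 0.09, limma adjusted p 0.797). Of 5 histone demethylase genes 0 passed, also at an unadjusted p under 0.05, and all 5 differences were negative (median -0.21), with Kdm5 at -0.31 (limma adjusted p 0.862) and Utx at -0.21 (limma adjusted p 0.901).

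Sarcomere genes were the one list in which all measured genes were on the same side as most SmydA probe sets. Of 10 measured genes 1 passed the limma test as higher. Of all genes, 1.90% passed it as higher and 1.02% as lower. The 1 was the actin gene Act79B, which rose by a log2 difference of 0.84 (SE 0.12, limma adjusted p 0.0288). All 10 differences were positive (median 0.62). With the replicate block, which called 12.6% of all genes higher, 8 of the 10 rose. For 5 of the 10 the mutants lay wholly above the wild type, as for 10.9% of all genes. Act79B lost its call without any one array except mutant 2, with differences of 0.76 to 0.86 in those fits. Among the tissue markers, the midgut genes mex1 and alphaTry had differences of -3.84 and 1.28 (limma adjusted p 0.00429 and 0.0214), the cuticle gene Cpr64Ac one of 1.55 (limma adjusted p 0.0234) and the glial gene nrv2 one of -0.92 (limma adjusted p 0.0183), and the other 24 measured markers did not pass. The part of these tissues, of muscle or of the stage of the embryos in the SmydA values was not tested.

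**Figure D4:**
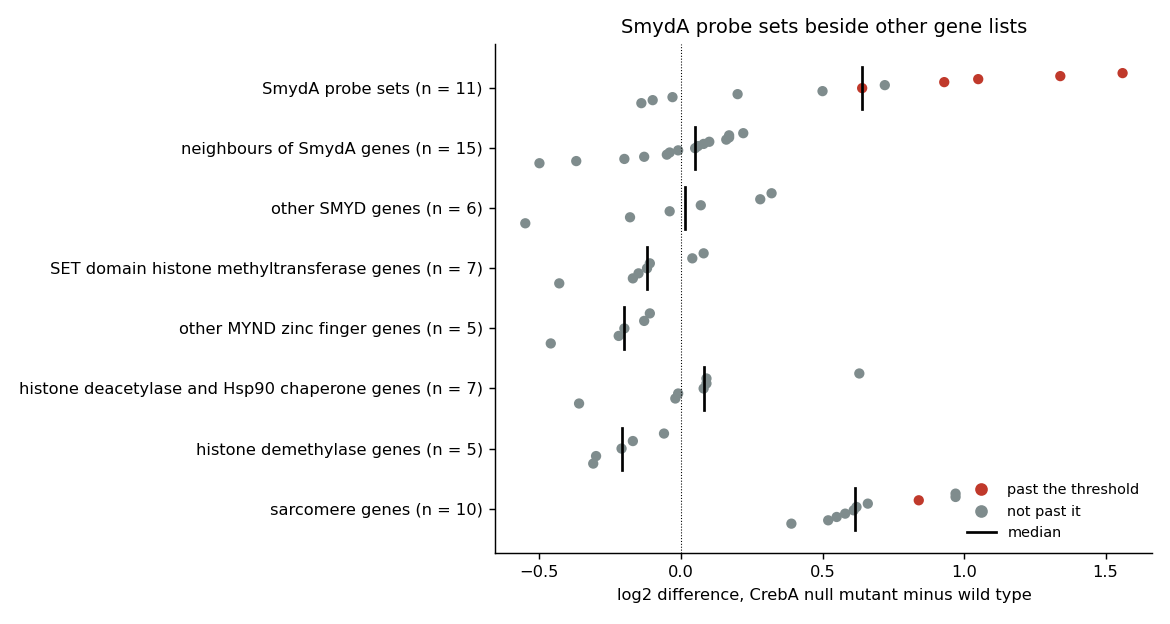
Log2 differences, CrebA null mutant minus wild type (horizontal axis), of the SmydA probe sets, of the genes next to them and of 6 gene lists. Each point is 1 probe set, red where it passed the limma threshold, and bars are medians. SmydA probe sets (median 0.64) and sarcomere genes (median 0.62) lie mostly above 0, and the other rows have medians from -0.21 to 0.08.

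The genes on either side of the SmydA genes were examined after the SmydA values were seen. Of 18 flanking positions in the RefSeq gene table, 15 held a measured gene outside the family. None of the 15 passed the limma test in either direction (1 had an unadjusted p under 0.05), and their differences ran from -0.50 to 0.22 with a median of 0.05. SmydA-8 is flanked by the fatty acyl reductase gene FarO (-0.01, SE 0.14) and by Vinc, which encodes the adhesion protein vinculin (0.17, SE 0.09). SmydA-3 is flanked by the mitochondrial pore gene porin (0.22, SE 0.13) and by Dnz1, which encodes a palmitoyltransferase (-0.05, SE 0.11).

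Both genes flanking SmydA-2 had negative differences, CG3808 at -0.50 (limma adjusted p 0.1) and the Wnt antagonist gene nkd at -0.37 (limma adjusted p 0.868). Both passed as lower with the block (limma adjusted p 0.0149 and 0.0373). They were the only flanking genes called with the block, 2 of 15, where it called 9.21% of all genes lower and 12.6% higher. SmydA-4 lies between vex (-0.04, SE 0.09) and CG1552 (0.17, SE 0.10), and CG1552 was below the Tag controls on every array. A difference as large as that of SmydA-8, SmydA-2 or SmydA-3 was not seen in any of the 15 flanking genes.

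Profiles over the 6 arrays were set against that of SmydA-8 (1632861_at), the probe set with the largest rise. The named genes most like it were Herc4, a HECT ubiquitin ligase gene, ChLD3, which encodes a chitin deacetylase-like protein, and cmpy, which acts at motor neuron terminals. Their Pearson correlations with it were 0.9946, 0.9946 and 0.9938 over 6 arrays of 2 genotypes, and their log2 differences were 0.73, 1.26 and 0.83. The 3 genes were picked as the highest. With 6 arrays that share a genotype step, 3.44% of all probe sets reached 0.9 or more.

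Within the family, the highest correlations with 1632861_at were 0.98 for SmydA-3 (1625409_at), 0.963 for the other SmydA-8 probe set and 0.952 for SmydA-2. SmydA-5, SmydA-4 and SmydA-7 had 0.925, 0.864 and 0.859. These describe the same genotype step and are not independent of it. The probe sets with overlapping genotypes had lower values, 0.292 for SmydA-1, -0.315 for SmydA-3 (1628752_at), -0.414 for SmydA-9 and -0.522 for SmydA-6. The lowest difference of the family was that of SmydA-9, which overlapped between genotypes near the Tag controls, so no genes of like profile are given for it.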

How the data were processed

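Per the submitters' processing notes, the authors used RMA and Partek, with no version or order given, and deposited 1 value for each of 18952 probe sets and 6 arrays. The log2 scale was inferred from the range of the deposited values, 2.81 to 14.53. No genome build is given in the sources used here, so no coordinates are printed. The number of arrays limits the precision.

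Probe sets other than 183 Affymetrix controls were named from the platform annotation: 13647 had 1 gene symbol, 402 several and 4720 none. For 13544 probe sets the gene ID was found in the RefSeq table of Release 6, where 0 symbols differed. Lists and flanking genes used 1 probe set per gene, the brightest on average among those naming no other gene. The genotype comparison was made in limma 3.58.1 (lmFit, eBayes; R 4.3.3) on all 18769 probe sets, without further normalization or filter, as a two-sided test with p-values adjusted by Benjamini-Hochberg. The fit was tested on simulated arrays with independent noise, so that test does not cover the correlation between the real arrays. Figures used matplotlib 3.10.9.

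The members and the 6 gene lists were chosen with earlier results of these data known. All SmydA probe sets were named, with up to 4 called genes of each list, or the 2 of highest mean where none was called, and the 3 genes of nearest profile for the SmydA probe set with the largest rise. The same step for the lowest difference gave a probe set near the Tag controls, and its profiles are not reported. Genes without a probe set of their own in the annotation were not analysed here. Smyd3 was listed under 2 names and counted once, and SmydA-8, listed as msta, was left out of the other SMYD genes.

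Replicate numbers come from the titles, which do not tie a number to a collection. After removal of the genotype means, same-numbered arrays correlated with r of 0.639, 0.852 and 0.563, all over 0.1, so the replicate block was run beside the fit without it. Crossed arrays 1 and 3 also correlated (0.566 and 0.371), so the same-number values of these replicates do not show pairing. Alternatives were quantile normalization, median centring, a filter on dim probe sets, an intensity trend, array weights, the block and leaving out arrays.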

Additional observations from a re-analysis of the deposited data

How the results depend on the processing

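The differences of the 7 SmydA probe sets with separate genotypes kept their sign in every alternative that gave a value, 13 for each but SmydA-5, which the filter on dim probe sets removed. Calls changed with the block, the array weights and the leaving out of arrays; the cause was not tested. With the filter 4 SmydA probe sets were called higher, against 5 without it, SmydA-5 being the one lost. The count of SmydA probe sets called higher ranged from 0 to 3 with 1 array left out, and none was called lower. Probe sets called over the whole array ranged from 23 to 159 higher and 15 to 121 lower with 1 array left out, and were 581 and 424 without both replicate 2 arrays, 1335 and 1109 with array weights, and 1788 and 1342 with the replicate block. Array weights and the block each gave 1 other SMYD gene higher and 1 lower. Among SET domain genes 1 was lower with array weights and without both replicate 2 arrays, and under the same settings 1 deacetylase or chaperone gene was higher. With the block 1 MYND gene was lower. Sarcomere genes called higher numbered 5 with array weights, 8 with the block, 2 without both replicate 2 arrays, and 0 to 1 with 1 array left out.

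Differences near 0 changed sign. SmydA-3 (1628752_at) went to 0.01 with array weights and 0.02 without wild type 2 or without both replicate 2 arrays, and ranged from -0.08 to 0.02 with 1 array left out. Smyd4-2 went to -0.10, -0.03 and -0.06 without mutant 2, wild type 1 and wild type 3, and to 0.31 without wild type 2. Without mutant 2 and without wild type 3, Set2 went to 0.09 and 0.18, Hph to 0.14 and 0.32 and Utx to 0.03 and 0.04; without wild type 2 they were -0.47, -0.69 and -0.62. Hph went to 0.20 with array weights. Signal near the Tag controls limits SmydA-5, SmydA-6, SmydA-9 and SmydA-3 (1628752_at). The filter removed SmydA-6 too.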
